A study of Homo sapiens with 18 samples.

Results

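MB, CD24, LY86, TCP11L2, SULF2 and GPR56 are 6 of the 23621 genes measured in GIST-T1, an established cell line from a gastrointestinal stromal tumor (GIST). They were chosen on measured values of these same libraries, for a higher level after 24 h of imatinib than in DMSO, or than after 24 h of JQ1. The DMSO, imatinib 24 h and JQ1 24 h libraries thus took part in the choice, and every comparison that contains one of these groups is given as a description, with its error and no p-value. JQ1 against imatinib at 6 h shares no library with the choice and is the comparison tested. The study set imatinib, an inhibitor of the kinase KIT on which these cells depend, beside JQ1, which displaces BET bromodomain proteins from chromatin. There were 6 groups of 3 RNA-seq libraries: DMSO, the solvent and the shared control; imatinib for 6 h; imatinib for 24 h; JQ1 for 6 h; JQ1 for 24 h; and both drugs together for 24 h. Each drug was given at 500 nM, alone or combined. The labels give no time for DMSO, and the libraries all come from the 1 cell line. Nothing in the labels says that replicate libraries were separate cultures, and a p-value then covers only their spread, which can be technical.

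The 6 genes belong to no single pathway. MB encodes myoglobin, the oxygen-binding heme protein best known from striated muscle. CD24 is a small, heavily glycosylated protein held on the cell surface by a glycosylphosphatidylinositol anchor, LY86 (MD-1) is the secreted partner of the toll-like receptor relative CD180, and SULF2 is an extracellular enzyme that removes sulfate groups from heparan sulfate chains. GPR56, now called ADGRG1, is an adhesion G protein coupled receptor, and TCP11L2 is a relative of the testis protein TCP11.

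Levels are FPKM, which corrects for transcript length, and the deposited values kept the sums of the ERCC spike-ins between 6505 and 6948 in every library. The spike-ins were added to RNA adjusted to cell count, per the labels, and on this scale the median gene was lower in every drug group than in DMSO. Total gene FPKM was 1833221 to 2463615 in DMSO, 453262 to 518817 with imatinib for 24 h and 286566 to 499857 in the combination, where replicate 2 had the highest total. In bulk RNA, fewer cells with a transcript and less of it in each cell cannot be told apart. The label of the line held against its markers: all 8 GIST markers examined passed the filter, and KIT had 643.8 ± 125 FPKM (SD, n = 3) in DMSO. A log2 change below is a difference of log2(FPKM + 1), which understates the change of genes at low FPKM. A gene is said to have risen or fallen where limma gave a Benjamini-Hochberg adjusted p below 0.05, over the 12771 genes tested, and a log2 change of at least 1 in size. All 6 members passed the filter of at least 1 FPKM in at least 3 libraries, and MB, LY86 and TCP11L2 did so mainly through groups in which they were high.

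Of the promoters, those of TCP11L2 and SULF2 are shown because they hold a match to GTAAACA, the core letters bound by FOXO and other forkhead factors. The RefSeq promoter table (GRCh38.p14, a later build than the hg19 of the expression values) matched 6 of 6 members with 15 windows, and the 250 bases before each start were searched on both strands for GTAAACA and for CACGTG, the E-box. Both motifs were picked after the sequences and values had been seen, and their letters can overlap at the ends, though no single window of a member held both. The capitals mark the match. In TCP11L2 (+ strand, chr12:106302483-106302732) it lies 232 to 226 bases before the start. In SULF2 (- strand, chr20:47786628-47786877) it lies 226 to 220 bases before the start and reads TGTTTAC, the reverse complement, along the gene's own strand.
TCP11L2: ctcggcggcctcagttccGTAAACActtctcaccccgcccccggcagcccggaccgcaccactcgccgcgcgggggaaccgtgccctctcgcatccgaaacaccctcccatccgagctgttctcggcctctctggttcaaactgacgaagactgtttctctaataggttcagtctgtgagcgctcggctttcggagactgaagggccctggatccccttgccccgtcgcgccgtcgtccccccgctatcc
SULF2: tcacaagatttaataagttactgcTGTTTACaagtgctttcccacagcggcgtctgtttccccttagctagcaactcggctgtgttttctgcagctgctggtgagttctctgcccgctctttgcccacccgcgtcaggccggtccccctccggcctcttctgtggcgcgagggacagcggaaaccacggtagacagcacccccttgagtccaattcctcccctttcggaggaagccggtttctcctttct
Among 35116 promoter windows, 2.98% held GTAAACA in those 250 bases and 6.34% held CACGTG. A second SULF2 window, which overlaps an exon of the gene, held CACGTG once, and the windows of MB, CD24, LY86 and GPR56 held neither. A match is a description of letters and shows no binding.

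Without imatinib, MB was among the lowest of the genes that passed the filter, which it passed mainly through groups where it was high. It had 0.330, 0.918 and 1.04 FPKM in the DMSO libraries and 1.06, 1.24 and 2.22 FPKM after 6 h of imatinib. At 24 h of imatinib it had 9.91, 10.9 and 11.2 FPKM. These 3 libraries stood far above all others, and the mean of 10.7 ± 0.672 FPKM (SD, n = 3) was 14.0 times the DMSO mean of 0.762 ± 0.379. With JQ1, MB had 0.626, 0.182 and 0.379 FPKM at 6 h and 0.178, 0.125 and 0.570 at 24 h. With both drugs it had 0.158, 0.204 and 0.247 FPKM. The 3 JQ1-containing groups overlapped, and the combination mean was 1.90% of that with imatinib alone. Those levels lie close to the bottom of the measurable range, since the 1st percentile of all gene values was 0.0894 FPKM. In DMSO 1.24% of the tested genes had a lower level than MB, and in imatinib at 24 h 59.7% did.

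CD24 had the highest level of the 6 genes after 24 h of imatinib. It had 4.14, 5.66 and 5.05 FPKM in DMSO and 5.35, 4.53 and 6.30 after 6 h of imatinib. At 24 h of imatinib it had 30.4, 36.4 and 34.0 FPKM. The 6 h libraries overlapped those of DMSO, while the 24 h mean of 33.6 ± 3.04 FPKM was 6.78 times that of DMSO. With JQ1, CD24 had 2.27, 2.22 and 2.62 FPKM at 6 h and 1.67, 1.81 and 2.82 at 24 h. With both drugs it had 3.36, 5.14 and 3.86 FPKM. The libraries of both JQ1 groups lay below all DMSO libraries, whereas those of the combination overlapped DMSO. CD24 has near-identical processed copies elsewhere in the genome, so the share of its reads that came from the gene itself is uncertain.

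LY86 was the lowest of the 6 genes in DMSO, at 0.701, 0.785 and 0.394 FPKM, and had 0.705, 0.823 and 1.31 FPKM after 6 h of imatinib. At 24 h of imatinib it had 6.28, 8.26 and 8.79 FPKM. Replicate 1 was the low one of these, and the mean of 7.78 ± 1.33 FPKM was 12.4 times that of DMSO. With JQ1 it had 1.15, 0.682 and 1.02 FPKM at 6 h and 1.32, 1.74 and 1.62 at 24 h. With both drugs it had 0.929, 2.04 and 1.47 FPKM. All libraries of JQ1 at 24 h and of the combination lay above all of DMSO, which on the deposited scale sets LY86 apart in direction from MB and CD24. After rescaling each library to the median of its gene ratios, none of the 3 genes lay below DMSO in these groups. The combination was then at 1.70 log2 for LY86, 1.72 for CD24 and 0.16 for MB, and JQ1 at 24 h at 1.28, 0.31 and 0.06. An antisense transcript, LY86-AS1, overlaps the gene, and the sources do not state whether strand was used in counting, so part of the value could be its reads. LY86 is best known from B cells and macrophages. Of 22 leukocyte markers, 5 were tested and 18 had a mean below 1 FPKM both in DMSO and with 24 h of imatinib. Their summed level was 56.7 to 82.4 FPKM in DMSO and 9.13 to 9.88 FPKM with imatinib at 24 h. Most of the DMSO sum was CORO1A, with 46.2 ± 9.65 FPKM. At 24 h of imatinib CORO1A had 1.08 ± 0.182 FPKM, and most of the sum there came from other genes of the list. The part of such cells in the LY86 values was not tested.

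SULF2 had almost one level in the 3 groups of DMSO and 6 h treatment on the deposited scale. It had 1.77, 2.25 and 2.68 FPKM in DMSO and 2.04, 1.91 and 2.62 after 6 h of imatinib. After 6 h of JQ1 it had 2.03, 2.33 and 2.30 FPKM. At 24 h the groups stood apart from these. SULF2 had 12.4, 13.9 and 13.1 FPKM with imatinib, a mean of 13.1 ± 0.719 and 5.87 times DMSO. It had 4.37, 5.04 and 6.43 FPKM with JQ1. With both drugs it had 6.07, 9.94 and 6.87 FPKM, and replicate 2, the library with the highest total FPKM of that group, was the high one. Every 24 h library lay above every DMSO library, and the imatinib libraries lay above those with JQ1.

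GPR56 had the highest level of the 6 genes without drug, where 33.5% of the tested genes had a lower level. It had 11.0, 10.4 and 15.3 FPKM in DMSO and 9.47, 10.2 and 10.9 after 6 h of imatinib. At 24 h of imatinib it had 17.8, 18.1 and 18.2 FPKM. These lay above all DMSO libraries, but the mean of 18.04 ± 0.221 FPKM was only 1.48 times the DMSO mean of 12.2 ± 2.70. With JQ1, GPR56 had 3.63, 3.51 and 4.43 FPKM at 6 h and 0.892, 0.816 and 1.34 at 24 h. With both drugs it had 0.692, 1.03 and 0.769 FPKM. The JQ1 levels stepped down from 6 h to 24 h with no overlap, and the combination mean was 14.7-fold below DMSO. GPR56 entered the group of 6 through its difference between the drugs, so the word induced describes it poorly on the deposited scale.

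TCP11L2 differed from the other 5 in its timing. It had 0.731, 1.02 and 0.820 FPKM in DMSO and already 5.62, 4.50 and 6.47 after 6 h of imatinib. At 24 h of imatinib it had 7.61, 9.54 and 8.75 FPKM. The 3 groups did not overlap, and the 24 h mean of 8.63 ± 0.975 FPKM was 10.1 times that of DMSO. With JQ1 it had 0.323, 0.359 and 0.524 FPKM at 6 h and 3.01, 3.57 and 4.51 at 24 h. With both drugs it had 3.08, 5.49 and 4.44 FPKM. TCP11L2 thus lay below DMSO at 6 h of JQ1 and above it at 24 h, in every library.

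**Figure D1:**
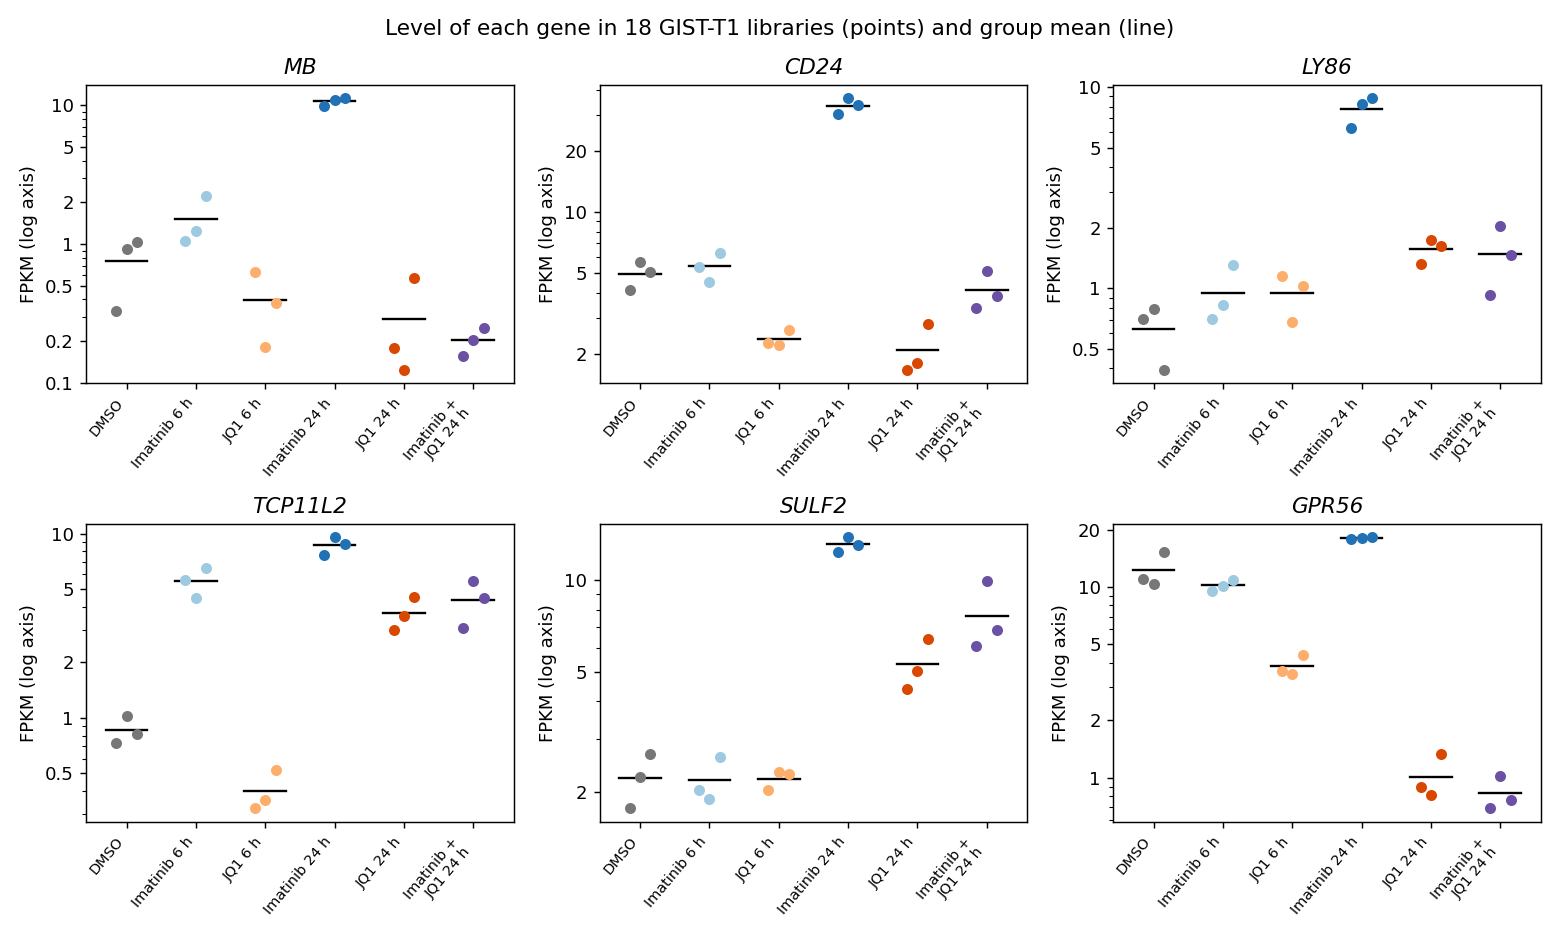
Level of each of the 6 genes in FPKM (vertical log axis) in the 18 libraries (points) of the 6 groups (horizontal axis), with the group mean as a line. Imatinib at 24 h is the highest group in all 6 panels, and TCP11L2 is also higher than DMSO at 6 h of imatinib, at 5.53 FPKM on average against 0.858 in DMSO.

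Imatinib for 24 h gave the highest mean level of all 6 genes, and for each of them its 3 libraries lay above all 15 others. This follows in part from how they were chosen. The share of all tested genes with the same separation was not counted, so nothing is read from it. The log2 difference from DMSO was 2.75 for MB, 2.54 for CD24, 2.43 for LY86, 2.37 for TCP11L2, 2.13 for SULF2 and 0.55 for GPR56, with standard errors of 0.15 to 0.17. In that comparison 0.642% of all genes tested rose and 72.1% fell, and the median over all genes was -1.50. Ranked from the top of the 12771 genes, MB was at place 5, CD24 at 8, LY86 at 10, TCP11L2 at 11, SULF2 at 18 and GPR56 at 258. Nothing is drawn from these ranks, since the rule used this difference. The part of the 24 h difference that was there at 6 h, in FPKM, was 60.1% for TCP11L2, 7.50% for MB, 4.47% for LY86 and 1.55% for CD24. For SULF2 it was -0.406% and for GPR56 -34.6%, since their 6 h means lay below DMSO.

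The mean levels with JQ1 at 24 h, alone or with imatinib, were different shares of the mean with imatinib alone in the 6 genes. These shares are ratios between separate groups, and the cells of JQ1 alone had no imatinib. In JQ1 alone, MB stood at 2.73%, GPR56 at 5.62% and CD24 at 6.25% of its mean with imatinib alone. LY86 stood at 20.1%, SULF2 at 40.2% and TCP11L2 at 42.8%. With both drugs the same order from low to high nearly held: MB was at 1.90%, GPR56 at 4.60%, CD24 at 12.3%, LY86 at 19.0%, TCP11L2 at 50.3% and SULF2 at 58.1%. Relative to their DMSO means, the combination means of GPR56, MB and CD24 were lower, that of CD24 with overlap, and those of TCP11L2, SULF2 and LY86 were 5.06, 3.41 and 2.36 times as high. The log2 difference of the combination from imatinib alone ran from -3.38 for GPR56 to -0.74 for SULF2, beside a median of -0.50 over all genes. Against DMSO, the log2 difference of JQ1 alone at 24 h was -2.70 for GPR56, -0.95 for CD24, -0.44 for MB, 0.66 for LY86, 0.95 for SULF2 and 1.33 for TCP11L2. Of all genes, 0.399% rose and 75.3% fell there.

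**Figure D2:**
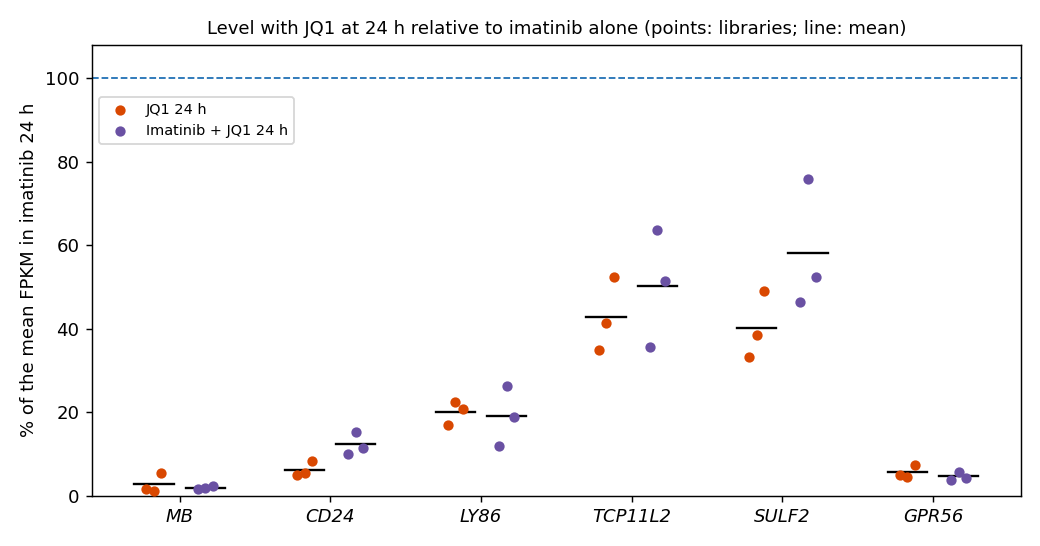
Level with JQ1 alone or with both drugs at 24 h, as a percentage of the mean FPKM with imatinib alone at 24 h (vertical axis), for the 6 genes. Points are libraries and lines are means, and the dashed line marks 100%. MB, CD24 and GPR56 lie at means of 12.3% or less, and SULF2 and TCP11L2 at 40.2% to 58.1%.

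After 6 h of imatinib TCP11L2 was 1.81 ± 0.16 log2 above DMSO (SE, 3 against 3 libraries), and was the 1 of the 6 genes past both limits of a call. Of all genes tested, 0.384% rose and 20.0% fell. The DMSO libraries took part in choosing the members, and a low DMSO level favors both the choice and this difference, so nothing is read from the count. MB was higher by 0.50 ± 0.17, with every imatinib library above every DMSO library. LY86 differed by 0.25 ± 0.16, CD24 by 0.10 ± 0.16, SULF2 by -0.02 ± 0.16 and GPR56 by -0.22 ± 0.15, each with overlapping libraries. The median of all genes was -0.69, and after rescaling each library to the median of its gene ratios CD24 was at 0.66, MB at 0.64, LY86 at 0.38, SULF2 at 0.41 and GPR56 at 0.46. Both SULF2 and GPR56 thus changed sign with the scale, and CD24 was several times further from DMSO on the rescaled one.

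After 6 h of JQ1 GPR56 was at -1.43 ± 0.15 log2 against DMSO, and was the 1 of the 6 genes past both limits of a call. Of all genes, 49.8% fell and 0.642% rose, with a median of -1.0, and the DMSO libraries are again those used in the choice. CD24 was at -0.81 ± 0.16 and TCP11L2 at -0.41 ± 0.16, both with all 3 libraries below DMSO. MB differed by -0.32 ± 0.17, LY86 by 0.26 ± 0.16 and SULF2 by 0.00 ± 0.16, each with overlap. After the same rescaling GPR56 was at -0.40, short of the fold, and MB, CD24 and TCP11L2 turned to 0.06, 0.06 and 0.01. SULF2 was then at 0.66 and LY86 at 0.55, also short of the fold. With smaller added values CD24 reached -1.03 (0.1 FPKM) and TCP11L2 -1.09 (0.01 FPKM).

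Imatinib and JQ1 could be compared at 6 h in libraries that played no part in choosing the genes. TCP11L2 was lower with JQ1 by -2.21 ± 0.16 log2 (limma adjusted p = 4.22e-10) and GPR56 by -1.21 ± 0.15 (adjusted p = 8.87e-07), and these 2 of 6 were called lower. Of all genes, 9.36% were called lower and 1.95% higher, with a median of -0.30. CD24 was lower by -0.92 ± 0.16 and MB by -0.83 ± 0.17, with no overlap and limma adjusted p of 9.29e-05 and 0.000363, short of the fold. For LY86 and SULF2 no difference between the drugs was detected at 6 h on the deposited scale. LY86 differed by 0.01 with a 95% interval from -0.33 to 0.34, and SULF2 by 0.02 with one from -0.32 to 0.36. This depended on the processing. After ratio rescaling SULF2 was higher with JQ1 by 0.26 (limma adjusted p = 0.00116) and LY86 by 0.17 (0.181). Scaled to one total FPKM they were at 0.05 (0.61) and 0.02 (0.865). With array weights LY86 was higher by 0.27 (limma adjusted p = 0.00457) and SULF2 by 0.025 (0.684), all short of the fold. Those weights lay mostly on replicate 1 of each group, at 7.04 with imatinib and 4.51 with JQ1, with no other above 1.01. At 24 h, where the values were used to choose the genes, JQ1 minus imatinib was -1.77 for LY86 and -1.18 for SULF2. After ratio rescaling TCP11L2 stayed called at -1.82 and GPR56 was at -0.86, below the fold. CD24 passed the fold without imatinib 6 h replicate 2, at -1.02, and CD24 and MB passed it with an added value of 0.1 FPKM, at -1.15 and -1.73.

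With both drugs for 24 h, TCP11L2 was 1.50 ± 0.16 log2 and SULF2 1.40 ± 0.16 above DMSO, and GPR56 was at -2.84 ± 0.15. These 3 were past both limits of a call, 2 higher and 1 lower. Of all genes, 0.235% rose and 86.0% fell, with a median of -2.05, and since a low DMSO level favored the choice of members, nothing is read from the count. LY86 was higher by 0.59 ± 0.16 and MB was at -0.53 ± 0.17, both without overlap, and CD24 differed by -0.22 ± 0.16. After ratio rescaling CD24 was at 1.72, LY86 at 1.70, TCP11L2 at 2.93, SULF2 at 3.20, GPR56 at -1.07 and MB at 0.16. This put 4 past the limits as higher and 1 as lower, where 1174 of all 12771 genes were called higher and 1299 lower. Scaled to one total FPKM, GPR56 was at -0.98 and just short of the fold. With an added value of 0.1 FPKM, LY86 was at 1.10 and MB at -1.40.

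Against JQ1 alone at 24 h, a group used in the choice, the combination had none of the 6 genes past the limits of a call in limma. Of all genes, 0.0470% rose and 7.35% fell, with a median of -0.54. CD24 was higher in the combination by 0.73 ± 0.16 log2, with all 3 libraries above those of JQ1 alone, and SULF2 by 0.45 ± 0.16, with overlap. TCP11L2 differed by 0.17, LY86 by -0.07, MB by -0.09 and GPR56 by -0.13, all with overlap. After ratio rescaling CD24 and SULF2 were at 1.42 and 1.14, past the fold, and LY86, MB and GPR56 lay above 0.

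**Figure D3:**
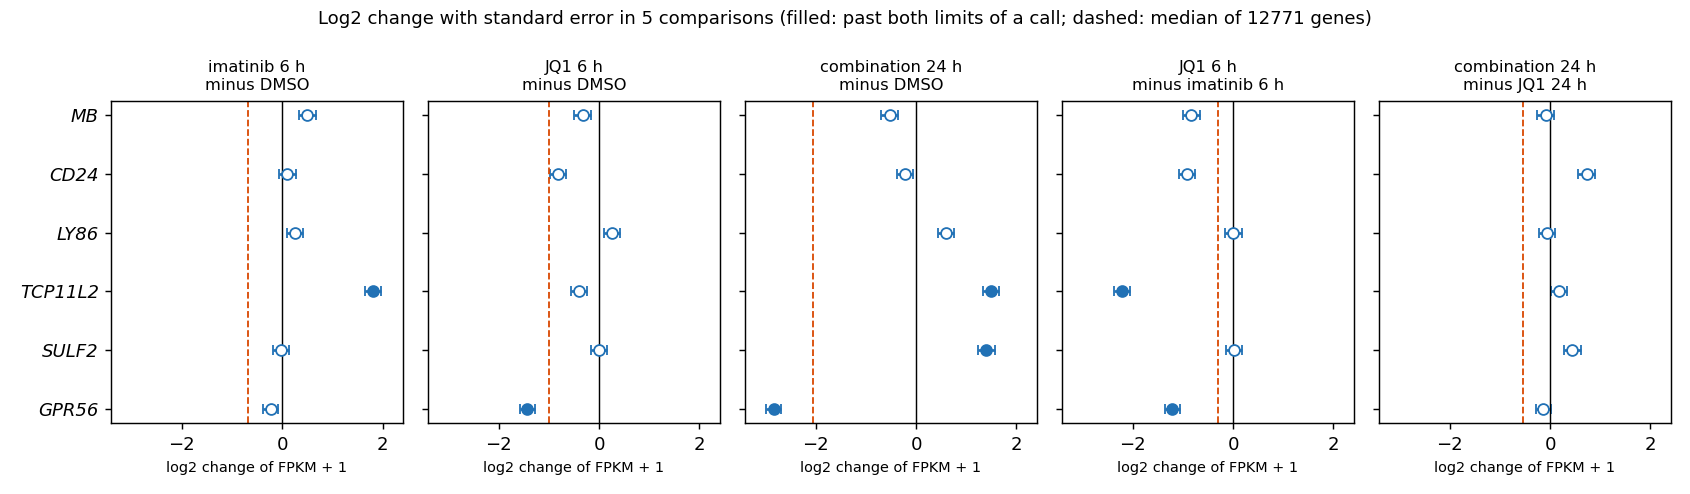
Log2 change of FPKM + 1 (horizontal axis) with its standard error for the 6 genes in 5 comparisons of 3 against 3 libraries, of which JQ1 6 h minus imatinib 6 h is the one free of the libraries used in the choice. Filled points are past both limits of a call, and the dashed line is the median of the 12771 genes tested. TCP11L2 is filled in 3 panels, GPR56 in 3, SULF2 in 1 and MB, CD24 and LY86 in none.

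Rescaling each library to the median of its gene ratios takes out the shared fall of most genes, and shows the 6 relative to the other transcripts of the same library. On that scale the imatinib 24 h mean was 49.1 times DMSO for MB, 39.7 for LY86, 33.4 for TCP11L2, 22.6 for CD24, 19.9 for SULF2 and 4.99 for GPR56. GPR56, 0.55 log2 above DMSO as deposited, was 2.11 above it. SULF2 in the combination was 16.4 ± 0.864 against 17.8 ± 0.342 with imatinib alone, and TCP11L2 9.28 ± 0.686 against 11.7 ± 0.806, in rescaled FPKM (SD, n = 3). MB stayed near its DMSO level with JQ1, at 0.06 log2 after both 6 h and 24 h, while CD24 was at 0.06 and 0.31. For SULF2 the spread within the combination was also smaller, since its SD was 2.05 on a mean of 7.63 FPKM as deposited. For MB it was not smaller relative to the mean, with an SD of 0.112 on 0.448 rescaled and 0.0448 on 0.203 FPKM as deposited.

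**Figure D4:**
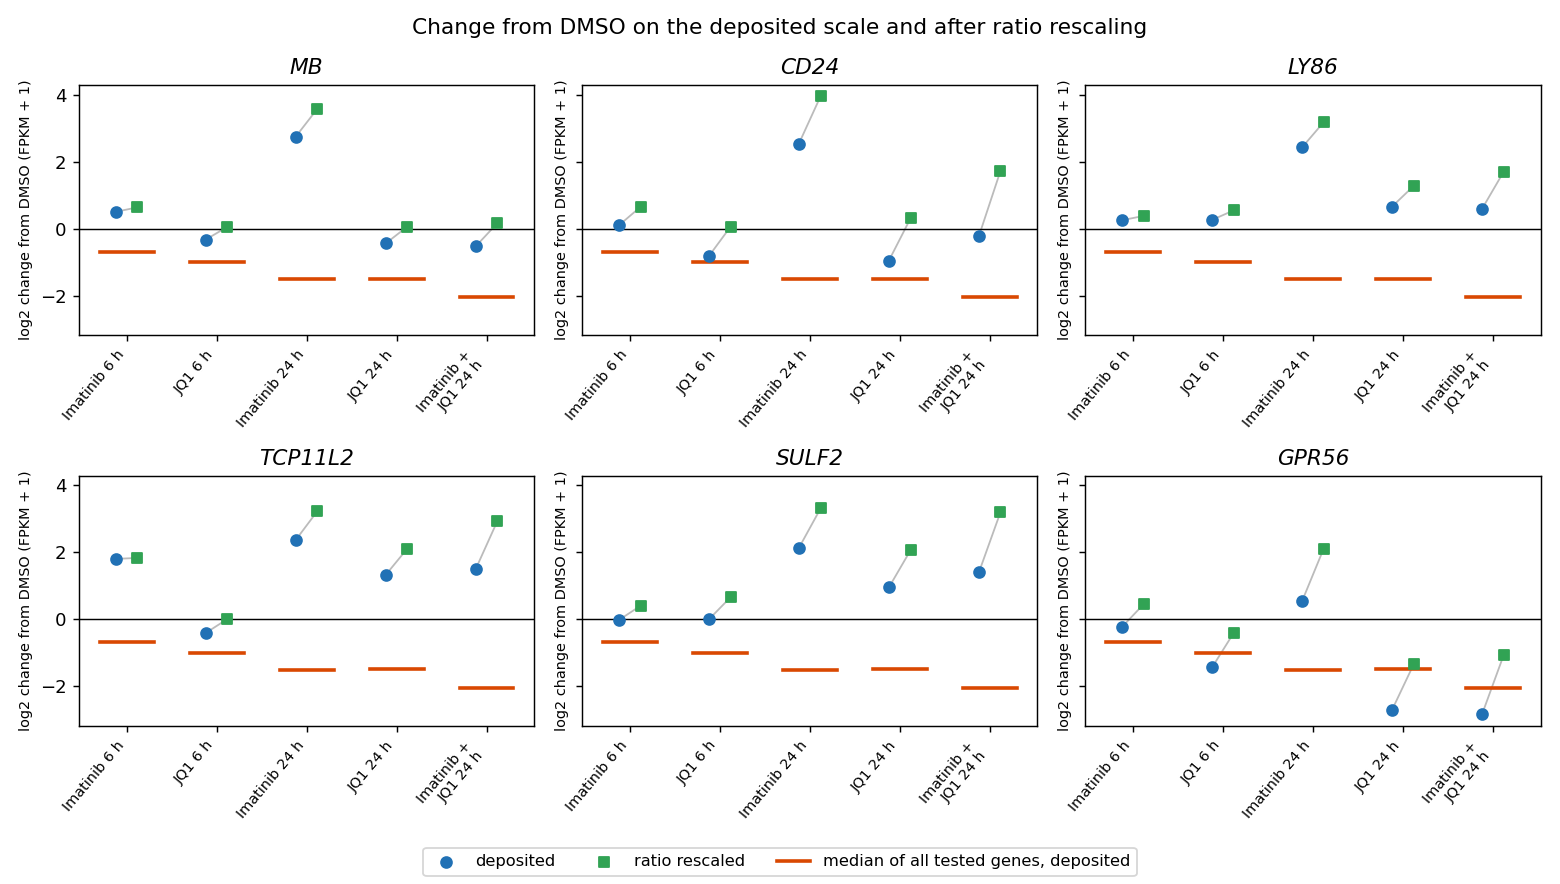
Log2 change from DMSO (vertical axis) of the 6 genes in the 5 drug groups, as deposited (circles) and after ratio rescaling (squares), with the median of all tested genes as deposited (orange lines). All-gene medians run from -0.69 to -2.05, and GPR56 moves from 0.55 to 2.11 with imatinib at 24 h.

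Across the 18 libraries the 6 genes did not follow a single pattern. MB and CD24 had the highest Pearson r of log2(FPKM + 1), 0.96, followed by LY86 with SULF2 at 0.86 and LY86 with MB at 0.85. GPR56 and SULF2 had an r of -0.05, and GPR56 and TCP11L2 one of 0.13. These values describe 18 libraries that share their drug groups and the fall in total FPKM. After ratio rescaling they were 0.91 for MB and CD24, 0.91 for LY86 and SULF2, 0.12 for GPR56 and SULF2 and 0.24 for GPR56 and TCP11L2.

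Of 9829 other genes, the 3 most like each member were taken by the same r over the 18 libraries. COL14A1, a collagen, led for both MB (0.98) and CD24 (0.96), with 1.01 FPKM in DMSO, 5.56 with 24 h of imatinib and 0.402 in the combination. MB was followed by the folate receptor FOLR1 (0.97) and LOXL4 (0.94), a lysyl oxidase relative, and CD24 by LTBP1 (0.96), a binder of latent TGF-beta, and the iron reductase CYBRD1 (0.96). TCP11L2 was most like FBXO32 (0.96), a ubiquitin ligase subunit, BMF (0.96), a cell death promoting BCL2 relative, and PLCL1 (0.94). FBXO32 had 0.942 FPKM in DMSO, 7.10 after 6 h and 10.7 after 24 h of imatinib, and 2.33 with JQ1 at 24 h. For SULF2 the genes were ATP8A2 (0.94), a lipid flippase, the matrix protein gene NPNT (0.93) and BCAS3 (0.92). LY86 had weaker matches, SPTLC3 (0.90), a sphingolipid enzyme subunit, GTF2IRD2P1 (0.89), a pseudogene whose reads may belong to its parent copies, and NBEA (0.86). GPR56 was most like RARRES3 (0.98), DNASE2 (0.98), a lysosomal nuclease, and IGFBP3 (0.98), a binder of insulin-like growth factors, with RARRES3 at 84.2 FPKM in DMSO, 106.2 with 24 h of imatinib and 15.3 in the combination.

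Genes listed around the roles of the members were counted at 24 h of imatinib, where 0.642% of all genes tested rose and 72.1% fell, so that few rises and many falls are the background for any list. Of 23 tested genes of globins and heme handling, 0 rose (0 also at an unadjusted limma p below 0.05) and 15 fell, with a median of -1.63 beside -1.50 over all genes. ALAS1, the first enzyme of heme synthesis, went from 40.7 ± 6.63 FPKM in DMSO to 6.97 ± 0.715. Of 12 tested of 52 striated muscle genes, 0 rose (2 at the unadjusted p) and 5 fell, with a median of -0.83; FHL1 went from 323.5 ± 71.2 to 81.7 ± 4.44 FPKM. Among 14 tested genes of the toll-like receptors and their partners, the setting of LY86, 0 rose (0 unadjusted) and 11 fell, with a median of -1.24. The kinase IRAK1 went from 265.8 ± 56.1 to 21.3 ± 0.244 FPKM and TLR3 from 9.46 ± 1.61 to 2.26 ± 0.274. After ratio rescaling the called genes of the 3 lists were 3 higher and 1 lower, 3 and 0, and 0 and 1, with medians of 0.02, 0.54 and 0.10. Of all 12771 genes, 1124 were called higher and 1118 lower on that scale, with a median of 0.01.

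The lists around the surface proteins are to be read against the same 72.1% of all genes that fell. After ratio rescaling the background is the same 1124 genes higher and 1118 lower of 12771. Of 15 tested binding partners of CD24 and other anchored surface proteins, 0 rose (1 unadjusted) and 9 fell, with a median of -1.05. THY1 went from 591.6 ± 126 to 39.1 ± 0.353 FPKM. Of 28 tested genes for heparan sulfate chains, the substrate of SULF2, 0 rose (0 unadjusted) and 22 fell, with a median of -1.33. The core protein genes SDC1 and GPC4 had log2 changes of -3.86 and -2.35. Of 10 other adhesion G protein coupled receptors, 0 rose (0 unadjusted) and 5 fell, with a median of -1.10, and LPHN2 went from 280.4 ± 53.6 to 54.0 ± 4.90 FPKM. Of 15 ligands and partners of GPR56, 0 rose (1 unadjusted) and 14 fell, with a median of -1.73, among them the tetraspanin gene CD9 at -2.80 and ROCK2, a kinase below RhoA, at -2.47. TCP11L1, the only tested relative of TCP11L2, fell by 1.40 log2. After ratio rescaling these 5 lists had 1 higher and 2 lower, 2 and 3, 2 and 1, 1 and 1, and 0 and 0 calls, and the medians of the first 4 were 0.33, 0.28, 0.34 and -0.09.

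Targets of the FOXO factors, forkhead proteins that kinase signaling through AKT keeps out of the nucleus, were the list with rising genes. Of 22 tested, 3 rose and 8 fell at 24 h of imatinib, and the median was 0.10 beside -1.50 over all genes. At 6 h, 5 rose and 2 fell, with a median of 0.23 beside -0.69. KLHL24 went from 13.3 ± 1.82 FPKM in DMSO to 82.5 at 6 h and 67.4 ± 6.95 at 24 h, and FBXO32 rose by 2.60 log2 at 24 h. TNFSF10, the gene of the death ligand TRAIL, fell from 530.1 ± 107 to 142.1 ± 13.4 FPKM. After ratio rescaling 12 of the 22 were called higher at 24 h and 0 lower, and 9 and 0 at 6 h. Of all 12771 genes, 1124 were called higher and 1118 lower at 24 h on that scale, and 156 and 265 at 6 h. Such rises also appeared with JQ1. After ratio rescaling JQ1 alone had 6 higher and 1 lower at 6 h, and 12 and 1 at 24 h (medians 0.57 and 1.25). Both drugs had 15 and 1 (median 1.57), beside a median of 1.45 for imatinib at 24 h. Over all genes these 3 comparisons had 316 and 329, 672 and 827, and 1174 and 1299. As deposited, JQ1 had 1 rising and 3 falling at 6 h and 1 and 6 at 24 h, and both drugs 3 and 7. The counts describe the list, and no test of the list was made.

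Epithelial cells are among those that carry CD24. Of 16 epithelial markers 5 were tested, and 11 had a mean below 1 FPKM in DMSO. The summed level of the list was 424.5 to 675.5 FPKM in DMSO, most of it KRT18, and 47.1 to 49.7 FPKM with 24 h of imatinib. Of the 5, 0 rose (0 at the unadjusted limma p) and 4 fell, beside 72.1% of all genes, with a median of -1.29, and 0 were called higher and 1 lower after ratio rescaling. Over all 12771 genes, 1124 were called higher and 1118 lower after ratio rescaling. The part of epithelial transcripts in the CD24 values was not tested. The GIST markers had 0 rising (0 unadjusted) and 6 falling of 8, and 2 higher and 1 lower after ratio rescaling, with CD34 going from 4065 ± 886 to 484.2 ± 17.2 FPKM and KIT to 144.5 ± 9.58. Of the 5 tested leukocyte markers, 0 rose (0 unadjusted) and 2 fell, and after ratio rescaling 0 were called higher and 1 lower, with a median of 0.31.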

How the data were processed

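The data are poly(A) RNA-seq of 18 libraries of GIST-T1. The authors deposited FPKM values, in which the ERCC spike-in sums are nearly equal between libraries, and the submitters' processing notes name STAR, Cufflinks and hg19 without versions. How the values were normalized was not given in the sources used here, and the depth in reads is unknown, so precision rests on the 3 libraries of each group. Of 23713 rows, 92 are spike-ins and 23621 genes, of which 28 carry names turned into dates. All columns matched a label (0 did not), and the JQ1 24 h column numbered 1, a number no title of that group has, was kept as an unnumbered library.

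The 12771 genes that reached 1 FPKM in 3 or more libraries were fitted with limma 3.58.1 in R 4.3.3 on log2(FPKM + 1), with one mean per group, an intensity trend and 12 residual degrees of freedom, using two-sided tests and Benjamini-Hochberg adjustment over those genes. For the members, p-values are printed only where neither compared group was used in choosing them. The spread behind these p-values was estimated over all 18 libraries, including those used in the choice. Fitted on the compared groups only, JQ1 against imatinib at 6 h also had 2 members called lower. The scripts were tested on simulated data. The members, the gene lists and the tests were chosen with earlier results of these data known. Named beside the members were the 3 genes of highest r with each (highest group mean of at least 5 FPKM), and from each list up to 3 called genes of largest change with 24 h of imatinib. Alternatives were added values of 0.1 and 0.01 FPKM, 2 other filters, 3 rescalings, array weights, a replicate block, fits without the groups not compared, and leaving out each library.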

Additional observations from a re-analysis of the deposited data

Results flagged for a closer look

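For 3 of the genes, JQ1 at 24 h moved every library one way from DMSO and, added to imatinib, every library the other way from imatinib alone. LY86 was at 0.66 log2 with JQ1 against DMSO and at -1.84 with the combination against imatinib. TCP11L2 was at 1.33 and -0.87, and SULF2 at 0.95 and -0.74. The median of all genes was -1.49 for JQ1 against DMSO and -0.50 for the combination against imatinib. After ratio rescaling the combination against imatinib was at -1.48 for LY86, -0.30 for TCP11L2 and -0.11 for SULF2. The fall of TCP11L2 and SULF2 was thus small on that scale. How many of all genes turned in the same way was not counted. TCP11L2 also lay below DMSO in every library at 6 h of JQ1, at -0.41, and above it in every library at 24 h, at 1.33. After ratio rescaling the 6 h value of TCP11L2 was 0.01. These differences were not tested, since the 24 h values took part in choosing the genes.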

How the results depend on the processing

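The number of the 6 genes past both limits of a call was 1, 1, 3, 2 and 0 for imatinib 6 h, JQ1 6 h and the combination against DMSO, JQ1 against imatinib at 6 h, and the combination against JQ1. With an added 0.1 FPKM it was 2, 5 and 4 for JQ1 6 h, the combination against DMSO and the drugs at 6 h, and with 0.01 FPKM 2, 3, 5 and 4 for the first 4 comparisons. A mean of at least 5 FPKM left 3 members and gave 0 for imatinib 6 h and 1 for the drugs at 6 h. Ratio rescaling gave 0, 5, 1 and 2 for the last 4 comparisons; scaling to one total gave 0 for JQ1 6 h, 4 for the combination against DMSO (4 higher and 0 lower, with CD24 at 1.83 and LY86 at 1.77 added and GPR56 lost) and 2 for the combination against JQ1, and without the MIR1244 rows 0 and 2, with 5 for the combination against DMSO. Scaling to one total put GPR56 in the combination at -0.98, below the fold. Of all 12771 genes, ratio rescaling called 316 higher and 329 lower for JQ1 6 h, and 1174 and 1299 for the combination against DMSO. For the drugs at 6 h it called 439 and 424, and for the combination against JQ1 30 and 104.

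Directions turned mostly with the scale. Against DMSO at 6 h of imatinib, SULF2 was at 0.41 and GPR56 at 0.46 by ratio, 0.40 and 0.45 by total, and 0.40 and 0.43 without MIR1244. By ratio, JQ1 at 6 h gave MB 0.056, CD24 0.061 and TCP11L2 0.010. In the combination against DMSO, MB was at 0.16, 0.20 and 0.13 and CD24 at 1.72, 1.83 and 1.61 by the 3 scalings. In the combination against JQ1, MB was at 0.099, 0.106 and 0.086, LY86 at 0.42, 0.44 and 0.39, and GPR56 at 0.27, 0.29 and 0.25. With array weights CD24 was at -0.078 and LY86 at -0.032 with imatinib at 6 h, SULF2 at -0.069 with JQ1 at 6 h and MB at 0.14 in the combination against JQ1. The array weights fell mostly on a single library of each of these groups. They were 8.19 for DMSO replicate 2, 7.04 for imatinib 6 h replicate 1 and 4.51 for JQ1 6 h replicate 1. JQ1 24 h replicate 2 had 16.2 and combination replicate 3 had 10.8, and no other library of these groups was above 1.01. The weighted values thus rest largely on those libraries. The cause of the turns other than by rescaling was not tested.

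Leaving out one library turned only values near 0: SULF2 ran from -0.123 to 0.081 with imatinib 6 h, from -0.11 to 0.10 with JQ1 6 h and from -0.045 to 0.113 between the drugs, where LY86 ran from -0.080 to 0.139, and against JQ1 the combination had MB from -0.178 to 0.063 and LY86 from -0.23 to 0.10. The replicate numbers do not pair the libraries: 14 same-numbered pairs had correlations of -0.13 to 0.19, and 4 were highest with their own number. A replicate block gave the same counts of 1, 1, 3, 2 and 0.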
